A study of Mus musculus with 4 samples.

Results

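Of the 10 genes for T cell coreceptors, costimulatory receptors and related surface molecules described here, Cd24a fell in PP2A cKO Th17 cells, to less than its level in either PP2A WT library, while 7 of the 9 tested genes lay higher in both cKO libraries than in both WT libraries, as did 27.2% of all tested genes, and none of these 7 passed the test. The genes are Cd4, Cd2, Cd5, Cd6, Cd28, Icos, Cd226, Cd69, Thy1 and Cd24a. Members were picked out of the table by name, from a list made with earlier results of these data known, and all 10 were found among the 52636 genes of the deposited expression table. The cells were C57BL/6 mouse Th17 cells, helper T cells that secrete interleukin 17, with 2 RNA sequencing libraries for each of the genotypes that the labels call PP2A WT and PP2A cKO. For 2 days, naive cells of both genotypes had been grown beside irradiated antigen presenting cells, 3 per naive cell, with 2 µg/ml each of antibodies to CD3 and CD28, 2 ng/ml TGF-β1, 20 ng/ml IL-6 and 10 µg/ml each of antibodies to IL-4 and interferon-γ. All cultures then received 50 ng/ml PMA and 500 ng/ml ionomycin for 4 h, so neither genotype has an unstimulated counterpart here. PP2A is a serine/threonine phosphatase made of several subunits. The labels name neither the deleted subunit nor the cells in which the deletion acts. The question, from the title of the study, is what the loss of this phosphatase does to Th17 differentiation.

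A T cell reads antigen through its receptor and reads the context of that antigen through these surface proteins. CD4 binds MHC class II and brings the kinase LCK to the receptor, and CD28 and ICOS deliver costimulation through PI 3-kinase when they meet their ligands. CD2 and CD6 bind proteins on the partner cell, CD5 dampens receptor signalling, CD69 appears early after activation, and THY1 and CD24 are held in the membrane by a lipid anchor.

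The libraries held 18517487 to 20387948 gene-assigned reads, recovered from the FPKM values, which are reads scaled by gene length and by library depth. The depth used in that scaling was not exactly these totals. Recovered reads were 98.9% and 96.9% of the depth it implies in WT and 100.3% and 100.7% in cKO. The catalytic subunit gene Ppp2ca had 42.2 and 50.1 FPKM in WT and 41.8 and 34.5 in cKO (limma, adjusted p = 0.36). Gene totals thus do not check the labels, and each direction below rests on them. All 7 listed T cell markers and all 7 Th17 markers had a mean of at least 1 FPKM. The 7 B cell markers summed to 0.374 to 0.786 FPKM per library, and the 8 dendritic cell and macrophage markers to 0.307 to 0.903, with Siglech and Clec9a at 0 in all 4. In bulk RNA, fewer cells of a type cannot be told apart from less RNA per cell. The libraries of a genotype are described as biological replicates, but no source used here ties them to separate mice or cultures. If they share one, the p-values reflect technical spread.

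The 10 genes covered a wide range of levels. In WT, Cd5 was the highest, with a mean of 348 FPKM, followed by Thy1 (213), Cd6 (158), Cd4 (105), Cd2 (101), Cd28 (99.0), Icos (34.3), Cd24a (17.5), Cd69 (11.2) and Cd226 (0.571). Each of these neighbours in the order kept separate library values except Cd2 and Cd28, whose WT values overlapped. In cKO the order differed. Cd2 stood above Cd4 in both cKO libraries and below it in both WT libraries. Cd6 came ahead of Thy1 and Cd28 ahead of Cd4, and in both of these pairs the cKO libraries overlapped. Cd69 stood above Cd24a in both cKO libraries and below it in both WT libraries. FPKM is scaled by the deposited gene length, so the order of the genes also depends on that length. It was 6509 bases for Cd69 and 2580 for Cd24a. Their transcripts with the longest coding sequence have 1687 and 743 bases. For Cd5 the 2 lengths were 2069 and 2067 bases. Averaged over the 4 libraries, Cd5 ranked 88th among the 10562 genes that averaged 1 FPKM or more, and Cd24a ranked 4174th.

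**Figure D1:**
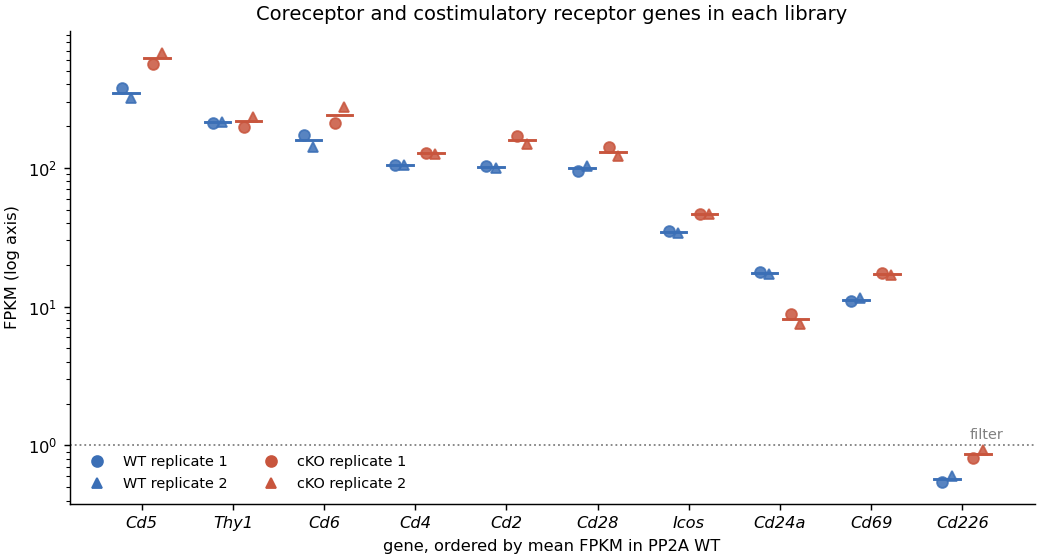
FPKM (y axis, log scale) of the 10 genes (x axis, ordered by the WT mean) in each PP2A WT and PP2A cKO library, with bars at the genotype means and a dotted line at the filter of 1 FPKM. Cd24a is the single gene whose cKO values (8.87 and 7.53) lie below both WT values (17.8 and 17.2), Thy1 overlaps between genotypes, and the other 8 lie higher in cKO.

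The genotypes were compared with limma on log2(FPKM + 1), over those 10562 genes, and p-values were adjusted by the Benjamini-Hochberg method over all of them with a threshold of 0.05. Adding 1 FPKM shrinks the fold change of weakly expressed genes. Of the 10 genes 9 passed the filter, and Cd226 did not. Among these 9, 1 was called lower (0.256% of all tested genes were) and 0 were called higher (0.814% of all tested genes were). Of the 9, 8 had an unadjusted limma p under 0.05, as did 19.8% of all tested genes. Both cKO values lay above both WT values for 7 of the 9 tested genes, against 27.2% of all tested genes, and below them for 1, against 28.7%. The median log2 fold change was 0.43 over the 9 genes and 0.00 over all tested genes.

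**Figure D2:**
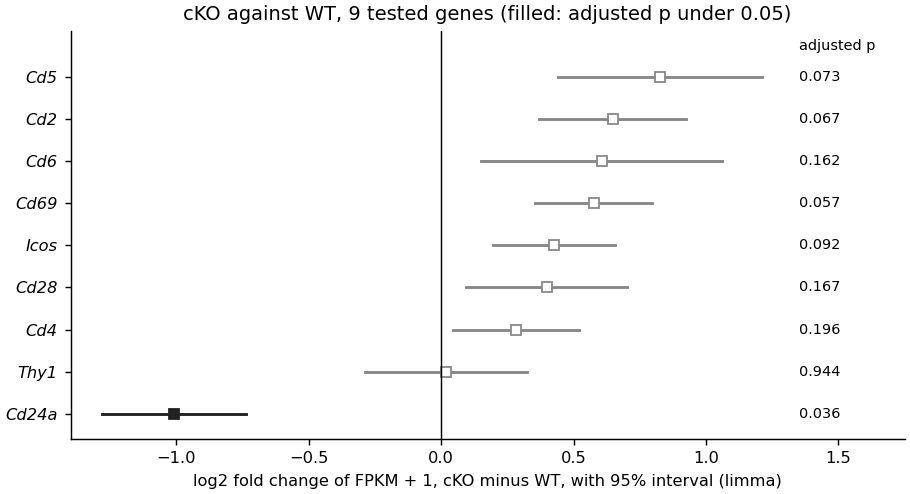
Log2 fold change of FPKM + 1, cKO minus WT (x axis), for the 9 tested genes (y axis), with 95% intervals from limma and the adjusted p at the right. Cd24a is the single gene past the threshold (filled square), at -1.01, and 7 genes have intervals above 0 although their adjusted p lies between 0.057 and 0.196.

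Cd24a encodes CD24, a small, heavily glycosylated surface protein that is abundant on thymocytes and on B cells. It lies on chromosome 10 from 43578284 to 43584265 (GRCm38, plus strand). Its level was 17.8 and 17.2 FPKM in WT but 8.87 and 7.53 FPKM in cKO. Both cKO libraries were thus low, and the lower WT value was 1.94 times the higher cKO value. The mean went from 17.5 ± 0.441 to 8.20 ± 0.945 FPKM (SD, n = 2), a 2.13-fold fall, and the log2 fold change of -1.01 ± 0.11 (SE) had a 95% interval from -1.28 to -0.74 (limma, adjusted p = 0.0356). Of all tested genes, 0.265% had a lower log2 fold change. The values rest on 899 and 847 reads in WT and on 465 and 377 in cKO. For 465 reads the exact 95% Poisson interval, which covers counting error only, was 424 to 509 reads. The call was lost without WT replicate 1 (adjusted p = 0.1), without WT replicate 2 (0.114) and with no filter on low values (0.168), with log2 fold changes of -0.99, -1.03 and -1.01. The B cell markers, whose cells also carry CD24, summed to 0.672 and 0.374 FPKM in WT and 0.547 and 0.786 FPKM in cKO, with no listed B cell marker at a mean of 1 FPKM. The part of B cells or of any other cell type in the Cd24a values was not tested.

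CD4, the coreceptor that defines helper T cells, is encoded by Cd4 on chromosome 6 (124864692 to 124888221). It had 104 and 105 FPKM in WT and 128 and 126 FPKM in cKO. The libraries of each genotype lay close together and the genotypes did not overlap. The means were 105 ± 0.490 and 127 ± 1.49 FPKM (SD, n = 2), and the log2 fold change of 0.28 ± 0.09 (95% interval 0.04 to 0.52) did not pass (limma, adjusted p = 0.196). The CD8 coreceptor genes are the counterpart in cytotoxic T cells. Cd8a had 0.257 to 0.548 FPKM over the 4 libraries and Cd8b1 had 7.06 to 9.84.

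CD2 is an adhesion and costimulatory receptor that binds CD48 in the mouse. Cd2 (chromosome 3, 101275899 to 101287939) had 103 and 98.9 FPKM in WT and 168 and 149 FPKM in cKO, with both cKO libraries high. The mean was 57.4% higher in cKO, at 159 ± 13.6 against 101 ± 2.64 FPKM (SD, n = 2). The log2 fold change of 0.65 ± 0.11 had a 95% interval from 0.37 to 0.93 and missed the threshold (limma, adjusted p = 0.0675).

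CD5 and CD6 are related receptors with scavenger receptor cysteine-rich domains, and their genes lie in one orientation on chromosome 19, with 50367 bases between them. Cd5 (10718143 to 10738974, minus strand) was the member with the highest log2 fold change. It had 378 and 318 FPKM in WT and 561 and 675 FPKM in cKO, so the lower cKO library stood 1.48 times above the higher WT library. Its means were 348 ± 42.7 and 618 ± 80.7 FPKM (SD, n = 2), a 1.78-fold difference, with a log2 fold change of 0.83 ± 0.15 (95% interval 0.44 to 1.21; limma, adjusted p = 0.0734). Cd6 (10789341 to 10830058, minus strand) had 174 and 142 FPKM in WT and 209 and 274 FPKM in cKO. Its genotypes did not overlap either, but it had the widest interval of the 9 genes, with a log2 fold change of 0.61 ± 0.18 (0.15 to 1.06; adjusted p = 0.162). In both genes WT replicate 1 was above WT replicate 2 and cKO replicate 2 above cKO replicate 1, by 0.27 for Cd5 and 0.39 for Cd6 between the cKO libraries on the log2 scale.

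The promoter of Cd5 is shown because Cd5 is the most abundant of the 10 genes and the one with the highest fold change. Of the 10 genes it is the 1 found in the RefSeq promoter table used here (GRCm38.p6). The sequence is the 250 bases before the RefSeq start, on the minus strand of chr19:10738975-10739224, written 5′ to 3′, with capitals marking GGAAG, the core of many ETS factor sites, and the E-box CAGGTG, on either strand.
Cd5 promoter: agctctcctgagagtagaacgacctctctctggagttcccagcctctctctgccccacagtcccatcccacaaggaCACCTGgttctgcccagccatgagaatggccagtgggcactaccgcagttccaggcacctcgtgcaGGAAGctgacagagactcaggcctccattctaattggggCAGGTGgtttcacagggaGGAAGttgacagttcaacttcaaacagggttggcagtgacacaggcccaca
GGAAG began at -108 and -51 from the start, on the strand of the gene. The E-box was found at -174 (reverse strand, CACCTG) and -69. At least 1 GGAAG or its complement CTTCC was present in 64.1% of the 32851 promoter windows of this length in the table, and CAGGTG or CACCTG in 17.2%. The AP-1 site TGACTCA (or TGAGTCA; 4.46% of windows) and the TATA box TATAAA (or TTTATA; 12.4%) had no match in these 250 bases. The motifs do not overlap each other here, and a match is a match of letters only.

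The genes around Cd5 and Cd6 were read from the same fit. A430093F15Rik, a processed transcript that lies between them (10740947 to 10786043), had 12.3 and 10.3 FPKM in WT and 20.5 and 24.4 FPKM in cKO, a log2 fold change of 0.93 ± 0.13 just outside the threshold (limma, adjusted p = 0.055). Slc15a3, a transporter gene 9669 bases beyond Cd6, had 9.03 and 4.88 FPKM in WT and 13.8 and 16.3 FPKM in cKO (1.06 ± 0.26, adjusted p = 0.122). Its end overlaps Tmem132a, so reads there are uncertain. Vps37c, 3724 bases from Cd5 on the other side, overlapped between genotypes, with 11.5 and 10.3 FPKM in WT and 11.3 and 14.6 in cKO. Over all 10 genes, 34 tested genes other than members lay within 100 kb of one. None of the 34 was called by limma, against 0.814% of all tested genes called higher and 0.256% called lower. An unadjusted p under 0.05 was found for 9, against 19.8% of all tested genes, and their median log2 fold change was -0.02.

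**Figure D3:**
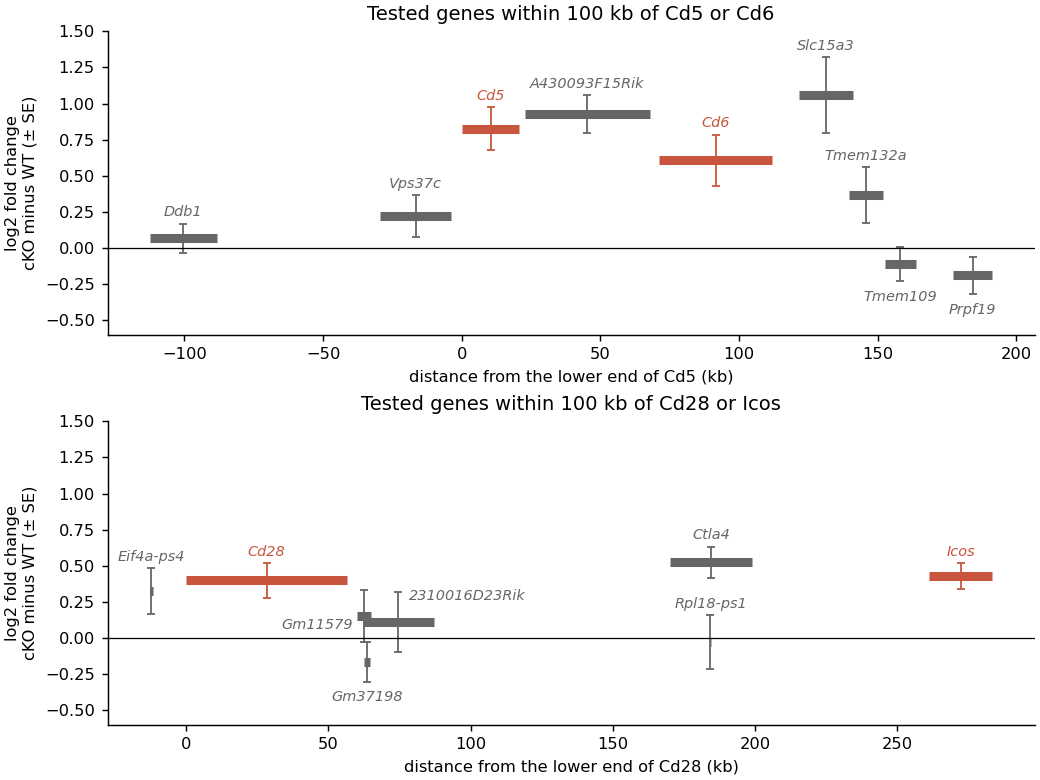
Log2 fold change, cKO minus WT, with SE (y axis), of the tested genes within 100 kb of Cd5 or Cd6 (top) and of Cd28 or Icos (bottom), drawn to scale by distance from the lower end of Cd5 or Cd28 (x axis, kb). Cd5, A430093F15Rik, Cd6 and Slc15a3 lie next to each other at 0.61 to 1.06, and Cd28, Ctla4 and Icos lie at 0.40 to 0.52. The members are in red and their neighbours in grey.

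CD28 is the main costimulatory receptor of naive T cells, binds CD80 and CD86, and was engaged in these cultures by an antibody. Cd28 (chromosome 1, 60716800 to 60773359) had 94.5 and 104 FPKM in WT and 140.2 and 122 FPKM in cKO. The genotypes did not overlap, though cKO replicate 2 lay only 1.18 times above WT replicate 2. The means were 99.0 ± 6.42 and 131 ± 13.0 FPKM (SD, n = 2), with a log2 fold change of 0.40 ± 0.12 (95% interval 0.09 to 0.70; limma, adjusted p = 0.167). ICOS, the inducible relative of CD28, is encoded 204568 bases away. Icos (60977927 to 61000320) had 34.97 and 33.7 FPKM in WT and 46.7 and 46.3 FPKM in cKO, and the pairs of libraries nearly coincided. Its mean was 35.4% higher in cKO (0.43 ± 0.09, 95% interval 0.20 to 0.66), again short of the threshold (adjusted p = 0.0924). Ctla4, the gene of the inhibitory receptor that shares the ligands of CD28, lies between them. It had 106 and 93.7 FPKM in WT and 144 and 144 FPKM in cKO (0.52 ± 0.11, adjusted p = 0.0885), so the 3 genes of the cluster had log2 fold changes from 0.40 to 0.52.

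CD226 is a costimulatory receptor for CD155 and CD112, best known from natural killer and cytotoxic T cells. Cd226 had 0.542 and 0.600 FPKM in WT and 0.814 and 0.919 FPKM in cKO, below the filter in all libraries. These values are 25 and 27 reads in WT and 39 and 42 in cKO. The exact 95% Poisson intervals were 16.2 to 36.9 reads for the lowest library and 30.3 to 56.8 reads for the highest. Both cKO values lay above both WT values. Fitted without the filter, the log2 fold change was 0.25, with a 95% interval from 0.02 to 0.47, and did not pass (limma, adjusted p = 0.334).

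CD69 is a lectin-like receptor that appears within hours of activation and holds cells in tissue by removing the sphingosine 1-phosphate receptor S1PR1 from the surface. Cd69 (chromosome 6, 129267325 to 129275436) had 11.04 and 11.5 FPKM in WT and 17.6 and 16.9 FPKM in cKO. Both cKO libraries stood at least 1.48 times above both WT libraries, and replicates differed little. The means were 11.2 ± 0.291 and 17.2 ± 0.472 FPKM (SD, n = 2), and the log2 fold change of 0.58 ± 0.09 (95% interval 0.35 to 0.80) came nearest to the threshold among those of the 9 tested members that were not called (limma, adjusted p = 0.0573). S1pr1 itself had 1.96 and 1.84 FPKM in WT and 1.78 and 2.13 in cKO, overlapping between genotypes.

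THY1 is the classical surface marker of mouse T cells. Thy1 (chromosome 9, 44043384 to 44048579) had 212 and 213 FPKM in WT and 198 and 233 FPKM in cKO. It was the single gene of the 10 whose genotypes overlapped, since the cKO libraries lay on either side of both WT libraries. The log2 fold change was 0.02 ± 0.12 (limma, adjusted p = 0.944), and its 95% interval, -0.29 to 0.32, corresponds to 0.818-fold to 1.25-fold on this scale. Its sign was negative with quantile normalization (-0.185), on recovered reads (-0.02) and without cKO replicate 2 (-0.10). THY1 and CD24 share the type of membrane anchor, but Cd24a fell and Thy1 was not called. That difference was not tested.

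The number of these genes past the threshold depended on the setting. On the recovered reads (limma voom), Cd24a was lower (adjusted p = 0.00678; 3.33% of tested genes were lower) and Cd2, Cd5 and Cd69 were higher (adjusted p = 0.0233, 0.0226 and 0.0227; 2.52% were higher). The same 4 genes were called after a correction for transcript GC content (2.7% of tested genes higher and 2.24% lower) and with protein-coding genes only (2.81% and 2.61%). Without cKO replicate 1 they were called too (1.4% higher and 1.08% lower). Without cKO replicate 2, Cd4, Cd28 and Icos joined them, and the background rose to 13.2% higher and 15.3% lower. Without WT replicate 1 or without WT replicate 2, none of the 9 was called by limma, where 0.72% and 0.521% of tested genes were called in either direction (1040 and 882 genes had an unadjusted p under 0.05). With no filter none was called among 21807 genes, of which 3012 had an unadjusted p under 0.05. In the other 8 settings Cd24a was the single gene of the 9 that was called. The share of all tested genes called lower was then 0.142% with a pseudocount of 0.1 and 0.464% with one of 5, 0.476% with a filter of 5 FPKM, 0.256% with median-of-ratios scaling, 0.199% with quantile normalization, 0.189% with no variance trend, 0.691% with a replicate block and 0.814% with the block and the GC correction. With a genotype reduced to 1 library, that library is assumed to vary like the other pair. Each of the 16 alternatives kept the sign of Cd24a and of the 7 genes with a higher cKO mean other than Thy1. For these genes, whose genotypes did not overlap, omitting a library or changing the pseudocount, filter, trend or block cannot reverse the sign. Some 95% intervals did include 0. With quantile normalization these were Cd4 (-0.02 to 0.42) and Cd6 (-0.0055 to 0.92), and with the replicate block Cd4 (-0.09 to 0.65) and Cd28 (-0.003 to 0.80). Cd6 passed in none of the 16 alternatives.

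**Figure D4:**
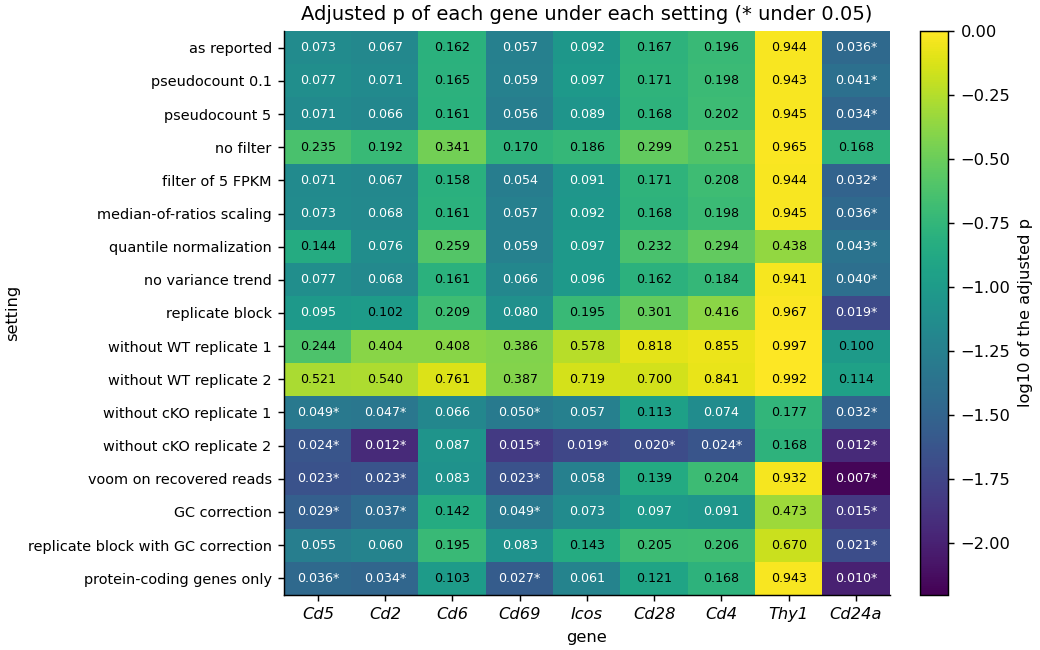
Adjusted p (printed in each cell, colour on a log10 scale) of the 9 tested genes (x axis) in the fit as reported and under 16 other settings (y axis). Cd24a is under 0.05 in the fit as reported and in 13 of the 16 others, Cd2, Cd5 and Cd69 in 5, Cd4, Cd28 and Icos in 1, and Cd6 and Thy1 in none.

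The cKO libraries differed from each other along transcript GC content. Across the 10562 tested genes, cKO replicate 2 minus replicate 1 had a median of -0.16 (log2) in the most AT-rich of 10 equal groups of genes and of 0.32 in the most GC-rich. The GC-rich genes Cd5 (56.8% GC) and Thy1 (55.8%) lay near the median of their group, at 0.27 and 0.23 against 0.24. Cd28 (41.2%) and Cd24a (42.95%) were lower in cKO replicate 2, by -0.20 and -0.21, against medians of -0.16 and -0.14. Cd6 (47.6%) was not near the median of its group, at 0.39 against -0.06, and Cd2 (50.9%) was not either, at -0.17 against 0.01. The genotype difference also varied with GC content. Mean cKO minus mean WT (log2) had a median of 0.10 in the most AT-rich group, which holds Cd28 and Cd69. In the most GC-rich group this median was -0.13. After the GC correction the log2 fold changes were 0.93 for Cd5, 0.67 for Cd2, 0.60 for Cd6, 0.46 for Cd69 and -1.06 for Cd24a. They were 0.38 for Icos, 0.33 for Cd28, 0.32 for Cd4 and 0.10 for Thy1. Of the 9 tested genes only Thy1 overlapped between genotypes, so each cKO library taken alone necessarily gave the same sign for the others. For Thy1 the signs were opposite. Against the WT mean, Cd24a was at -0.91 in cKO replicate 1 and -1.12 in cKO replicate 2, and Cd5 was at 0.69 and 0.96.

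**Figure D5:**
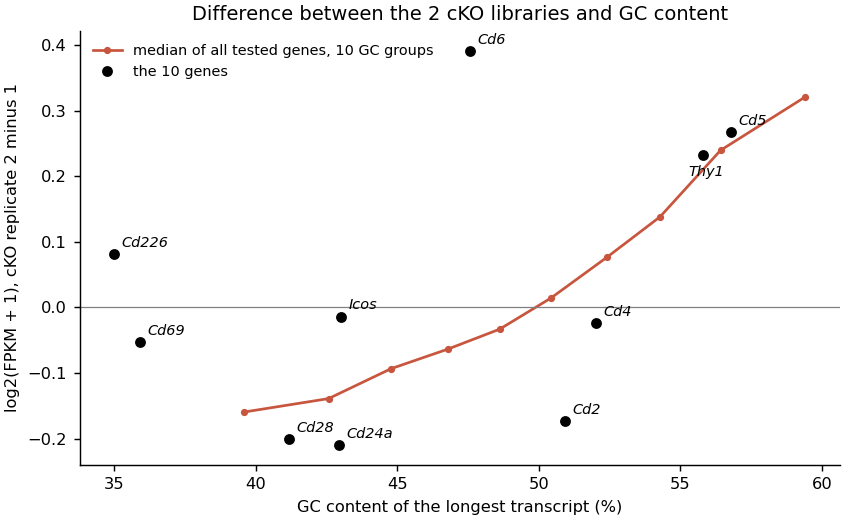
Difference of log2(FPKM + 1) between the cKO libraries, replicate 2 minus replicate 1 (y axis), against the GC content of the longest transcript (x axis, percent), for the 10 genes (black) and as the median of all tested genes in 10 GC groups (red line). The line runs from -0.16 to 0.32. Cd5 and Thy1 lie near it, and Cd6 (0.39), Cd226 (0.08) and Cd2 (-0.17) lie away from it.

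The partners of these receptors were read from 4 lists of 66 genes in all, of which 58 were tested. Of the 58, 3 rose and none fell (limma), against 0.814% and 0.256% of all tested genes. An unadjusted p under 0.05 was found for 24, against 19.8% of all tested genes, and the median log2 fold change of the 58 was 0.04. The lists were chosen with earlier results of these data known, so setting them beside all tested genes is not an independent test. Of 9 tested ligands and outside partners, 7 had an unadjusted limma p under 0.05, against 19.8% of all tested genes, and 1 rose. It was Cd80, a ligand gene for CD28 and CTLA-4, with 0.240 and 0.277 FPKM in WT and 1.91 and 1.64 FPKM in cKO, from 8 and 9 reads and 66 and 54 reads (log2 fold change 1.14 ± 0.13, limma, adjusted p = 0.0391). The ratio of its means was 6.86, and it passed the filter only through the cKO libraries. Cd86, the other ligand gene for CD28, had 1.09 and 1.37 FPKM in WT and 2.46 and 2.52 in cKO and was not called (0.65 ± 0.12, adjusted p = 0.0734). CD80 and CD86 are best known from antigen presenting cells, and irradiated cells of that kind were in the cultures. The 8 dendritic cell and macrophage markers, none with a mean of 1 FPKM, summed to 0.580 and 0.903 FPKM in WT and 0.490 and 0.307 in cKO. The marker Cd14 made up most of the WT sums, with 0.423 and 0.799 FPKM in WT and 0.250 and 0.0656 in cKO, and Flt3 was higher in both cKO libraries, with 0.0248 and 0.0424 FPKM in WT and 0.0558 and 0.1002 in cKO. The part of such cells in the Cd80 and Cd86 values was not tested. Itgav, an integrin chain gene, had 15.9 and 12.4 FPKM in WT and 20.6 and 21.6 in cKO (adjusted p = 0.119). The ligand genes Cd48 of CD2 and Alcam of CD6, named here after their values were seen, lay lower in both cKO libraries, at 38.1 ± 0.339 and 31.8 ± 0.602 FPKM (adjusted p = 0.211) and at 8.24 ± 0.158 and 6.89 ± 0.0967 FPKM (SD, n = 2; adjusted p = 0.228).

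None of the 22 intracellular partners was called by limma, and their median log2 fold change was -0.02. Of the 22, 4 had an unadjusted limma p under 0.05, as did 19.8% of all tested genes. Prkcq, which encodes the protein kinase C isoform that acts downstream of CD28, had 24.6 and 27.8 FPKM in WT and 17.9 and 17.5 in cKO (-0.54 ± 0.10, adjusted p = 0.0763). Pik3cd, the gene of a PI 3-kinase catalytic subunit, had 30.8 and 32.5 FPKM in WT and 18.1 and 27.2 in cKO, and the cKO libraries differed widely (adjusted p = 0.262). Lck, whose kinase binds the CD4 tail, had 189 and 187 FPKM in WT and 190 and 214 in cKO (adjusted p = 0.635) and was named after its values were seen.

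Of 21 other tested surface receptor genes, 2 rose and none fell, against 0.814% and 0.256% of all tested genes, with a median log2 fold change of 0.21. Both cKO values lay above both WT values for 15 of the 21, against 27.2% of all tested genes. They lay below for 3, against 28.7%. An unadjusted limma p under 0.05 was found for 11, against 19.8%. Ly6a, which encodes the lipid-anchored protein Sca-1, had 121 and 126 FPKM in WT and 219 and 217 FPKM in cKO (0.82 ± 0.10, limma, adjusted p = 0.0401). Ly6c1 had 1.92 and 2.68 FPKM in WT and 6.31 and 6.00 FPKM in cKO (1.12 ± 0.14, adjusted p = 0.0456). Both belong to a family of similar gene copies, so their reads are uncertain. Cd160 and Crtam had log2 fold changes of 0.87 ± 0.13 and 0.85 ± 0.12 at levels of 0.406 to 1.83 and 1.29 to 3.44 FPKM and were not called (adjusted p = 0.0591 and 0.053). Cd160 passed the filter only through the cKO libraries. Of the 6 tested genes of lymphocyte homing, naive state and Icos mRNA control, none was called. An unadjusted limma p under 0.05 was found for 2, against 19.8% of all tested genes. Ccr7 had 35.6 and 30.9 FPKM in WT and 20.0 and 27.1 in cKO (adjusted p = 0.209), and Il7r had 9.77 and 10.1 against 12.8 and 11.6 (0.207). Cd80, Ly6a and Ly6c1 were not called without WT replicate 1 (adjusted p = 0.0637, 0.291 and 0.0778). Cd80 and Ly6a were not called without WT replicate 2 (0.0706 and 0.318), and Cd80 and Ly6c1 were not called without cKO replicate 1 (0.0647 and 0.0636). Without cKO replicate 2, more of the 58 genes were called in each direction, but so were more of all tested genes.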

How the data were processed

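Per the file headers, the authors deposited FPKM per gene, with gene length and coordinates, for 2 PP2A WT and 2 PP2A cKO libraries. Genome builds GRCm38 and mm10 and the counter featureCounts 1.5.0-p3 are listed in the submitters' processing notes. No aligner, annotation release or strand setting is given, so overlapping genes on opposite strands cannot be told apart. Reads were recovered from FPKM times gene length, and 100% of them came out whole (within 0.01 read).

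limma 3.58.1 (R 4.3.3) was fitted to log2(FPKM + 1) for genes averaging 1 FPKM or more (cKO minus WT, two-sided, variance trend, Benjamini-Hochberg adjustment over all tested genes). Exact permutation of 2 libraries against 2 gives no p under 0.333, so calls rest on variance shared across genes. The procedure was also run on simulated reads with the same dispersion for all genes and no GC trend between libraries. The cKO libraries here differ along GC content, so that run does not check the calls above. GC content came from the longest GENCODE M21 transcript, and the GC correction subtracted a lowess curve per library. Alternatives were other pseudocounts, filters and scalings, no variance trend, a replicate block, omission of each library, voom, the GC correction and protein-coding genes only.

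Named were the 10 members, list genes past the threshold or, with fewer than 3 of them, also the 3 with the largest absolute fold change per list, and some neighbours within 100 kb. Some list genes that this rule names are not reported here. Others are said to be chosen after their values were seen. Ppp2ca, S1pr1 and the CD8 genes were named as reference points. The members and lists were chosen with earlier results of these data known.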

Additional observations from a re-analysis of the deposited data

How the results depend on the processing

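In the fit as reported 86 genes were higher and 27 lower. The number of genes called went from 113 to 0 with no filter, 227 with the replicate block, 618 with voom, 522 with the GC correction, 252 with the replicate block and the GC correction, and 500 with protein-coding genes only. Leaving out 1 library gave 55 (without WT replicate 2) to 3004 (without cKO replicate 2). Of the 9 members, 1 was called as reported, 0 with no filter, and 4 each with voom, the GC correction and protein-coding genes only, with 0 to 7 when 1 library was left out. Of the list genes, 3 were called as reported, 1 with a pseudocount of 0.1, 0 with no filter, 1 with a filter of 5 FPKM, 0 with quantile normalization, 10 with voom, 8 with the GC correction and 9 with protein-coding genes only, and 0 to 24 without 1 library. The fit as reported tested 58 list genes. The filter of 5 FPKM left Cd80 and Ly6c1 untested, so their loss there is not a failed test. Ly6a, also called as reported, stayed called with that filter (limma, adjusted p = 0.0442). Where more list genes were called, with voom, the GC correction, protein-coding genes only or without cKO replicate 2, more of all tested genes were called too. Thy1 changed sign with quantile normalization (-0.185), with voom (-0.02055) and without cKO replicate 2. Its log2 fold change ranged from -0.10 to 0.1336 when 1 library was left out. The causes were not tested.

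The shared replicate numbers carry no stated pairing, and deviations of same-numbered libraries had a correlation of -0.09 over 10562 genes. With the replicate block 1 member, Cd24a, was called (adjusted p = 0.0194), and 3 list genes were. Ly6a was not among them (adjusted p = 0.061).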
